A study of Mus musculus with 29 samples.

Results

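The TGF-beta and activin pathway genes described here were 8 of the 24421 rows of the count table, chosen by symbol: the ligand genes Tgfb1, Tgfb2, Tgfb3 and Inhba, the receptor genes Tgfbr1 and Tgfbr2, the inhibitory SMAD gene Smad7 and the TGF-beta-induced matrix gene Tgfbi. Each of the 8 symbols matched 1 row. The libraries came from peritoneum of female C57BL/6J mice implanted intraperitoneally with YTN16, a mouse gastric cancer cell line that forms disseminated nodules, and each library was 1 mouse. The mice were 5 to 6 weeks old at the start, and all of the mice, untreated ones included, carried the implant of this single line. In the dual ICI groups, anti-PD1 at 10 mg/kg and anti-CTLA4 at 5 mg/kg were given intraperitoneally on days 5, 8 and 12, and in mice kept to day 35 also on days 21 and 28. The single-agent groups received the same antibody at the same dose, and the untreated mice received PBS. On day 21 there were 5 untreated and 5 dual ICI mice, and on day 35 there were 5 untreated, 5 anti-PD1, 4 anti-CTLA4, 2 uncured dual ICI and 3 cured dual ICI mice. The labels do not give the outcome: the numbers 1 and 5 (uncured) and 2, 3 and 4 (cured) of the dual ICI libraries were taken as the mouse numbers of the study, and every value for uncured and cured mice rests on that match. RNA came from stripped peritoneum with or without nodules, labelled as tumor tissue.

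TGF-beta ligands are secreted in a latent form, held by a propeptide and by latent TGF-beta binding proteins, and act after release by integrins or thrombospondin. They bind the type II receptor TGFBR2, which phosphorylates the type I receptor TGFBR1, and the complex then phosphorylates SMAD2 and SMAD3. Inhba encodes the beta A subunit whose dimer is activin A, which signals through its own receptors to the same SMADs and is trapped by follistatin (Fst). Smad7, induced by the pathway itself, blocks the receptors. In tumors the pathway is known for matrix deposition by fibroblasts and for restraint of T cells.

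Across the 29 libraries, total counts lay between 25989217 and 31219650. CPM, the count of a gene per library of one fixed size, was computed on library sizes adjusted by TMM, a method that assumes most genes do not differ, and SD is between mice. Each comparison used the 2-sided quasi-likelihood F-test of edgeR on raw counts, and a gene was called at a Benjamini-Hochberg adjusted p under 0.05 over all genes tested. All 8 genes passed the filter on low counts in every comparison.

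The mix of tissue differed between the libraries. Skeletal muscle markers (10 of 10 listed genes found) took 17.6% to 19.0% of counts in the cured mice, 4.67% to 16.5% in untreated day 35 mice and 4.45% to 6.28% in the uncured mice. Gastric epithelium markers (10 of 10 found) summed to 13.3 to 66.3 CPM on total counts in the cured mice, where Tff1 and Muc5ac were at 0, against 913 to 3787 in untreated and 4254 to 5200 in uncured mice. Epithelial markers were thus near 0 in the cured mice despite the label of tumor tissue. Anti-PD1 mouse 5 also stood apart from its group, with 42.5 CPM of epithelial markers and 17.1% muscle counts. The study states that 1 anti-PD1 mouse was cured but not which. Untreated day 35 mouse 2 had 16.5% muscle counts and 913 CPM of epithelial markers. In these bulk libraries, fewer cells of a type and less RNA per cell cannot be told apart. The scaling moved the zero line: the median log2 fold change of all genes, cured against untreated on day 35, was -0.05 with TMM and -0.64 with total counts alone. The comparisons of day 35 with untreated mice share the same 5 untreated libraries. With TMM, 44.7% of all genes were called for cured against untreated mice and 70.0% for uncured against cured mice. The assumption of TMM is thus in doubt in these comparisons. Values on total counts stand beside the TMM values for the cured mice.

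The region upstream of the start site is shown for the 3 ligand genes whose levels differed most between cured and uncured mice, since the comparisons turned on them. The windows are 250 bases before the annotated start (RefSeq, GRCm38.p6), read on the strand of the gene: chr7:25686752-25687001 on the plus strand for Tgfb1, chr1:186705990-186706239 on the minus strand for Tgfb2 and chr13:16011601-16011850 on the plus strand for Inhba. Capitals mark GTCT, the core of the SMAD-binding element, on either strand (AGAC where it lies on the other strand).
Tgfb1: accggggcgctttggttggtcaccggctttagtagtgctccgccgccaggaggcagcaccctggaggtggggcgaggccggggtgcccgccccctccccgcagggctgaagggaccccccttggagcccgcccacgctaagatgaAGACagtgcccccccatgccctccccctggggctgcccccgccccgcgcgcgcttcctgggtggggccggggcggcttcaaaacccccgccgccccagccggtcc
Tgfb2: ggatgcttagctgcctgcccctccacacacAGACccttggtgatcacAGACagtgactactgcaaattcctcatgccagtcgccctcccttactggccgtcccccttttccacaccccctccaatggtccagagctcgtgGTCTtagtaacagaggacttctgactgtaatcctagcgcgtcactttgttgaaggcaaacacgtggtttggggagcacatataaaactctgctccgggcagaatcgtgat
Inhba: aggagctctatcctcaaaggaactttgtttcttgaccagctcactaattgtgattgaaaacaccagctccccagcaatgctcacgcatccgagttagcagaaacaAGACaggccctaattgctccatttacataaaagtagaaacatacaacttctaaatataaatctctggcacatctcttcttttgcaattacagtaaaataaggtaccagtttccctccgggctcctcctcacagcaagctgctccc
Tgfb1 and Inhba held 1 match each, with first bases at -105 and -145, and Tgfb2 held 3, at -220, -203 and -110. GTCT is short, and 82.9% of the 32851 promoter windows of the same length held it. GC content was 75.2% for Tgfb1, 53.6% for Tgfb2 and 43.2% for Inhba, against a median of 52.4% over all windows. The AP-1 motif TGANTCA, held by 6.75% of all windows, and the SMAD palindrome GTCTAGAC, held by 0.167%, had no match on either strand in the 7 windows read for 6 of the 8 genes. No window was read for Tgfb3 and Smad7. These matches describe letters only.

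Per kilobase of exon (RPKM on total counts over the union of GENCODE M21 exons), the ligand genes differed widely in level. In untreated day 35 mice, Tgfb3 stood at 31.7 ± 7.41 RPKM (SD, n = 5), Tgfb1 at 12.2 ± 3.51, Tgfb2 at 3.81 ± 0.69 and Inhba at 0.595 ± 0.400. The receptor gene Tgfbr2 stood at 29.0 ± 8.64 and Tgfbr1 at 10.5 ± 3.22, and the ranges of these receptors did not overlap. Tgfbi, which encodes a secreted matrix protein that binds integrins and collagen, stood at 49.1 ± 10.9 RPKM, and Smad7 at 6.75 ± 1.54. In the cured mice the per-length levels of Tgfb1 (4.55 ± 0.14, SD, n = 3) and Tgfb2 (4.57 ± 0.27) were alike, whereas in untreated mice the lowest Tgfb1 level of 6.496 lay above the highest Tgfb2 level of 4.54. On GRCm38 the ligand genes lie at chr7:25687002-25705077 (Tgfb1, plus strand), chr1:186622792-186705989 (Tgfb2, minus), chr12:86056745-86079041 (Tgfb3, minus) and chr13:16011851-16031621 (Inhba, plus). The receptor genes lie at chr4:47353222-47414931 (Tgfbr1, plus) and chr9:116084293-116175360 (Tgfbr2, minus), Smad7 at chr18:75367529-75395935 (plus) and Tgfbi at chr13:56609523-56639562 (plus), and all are protein-coding. The counts of Tgfb2 and Tgfb3 carry some uncertainty, since 124 exon bases of Tgfb2 are shared with the antisense gene Gm29491, and 257 and 163 exon bases of Tgfb3 with Gm48008 and Gm37804 on the opposite strand. Whether reads were counted by strand is not given in the sources used here.

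**Figure D1:**
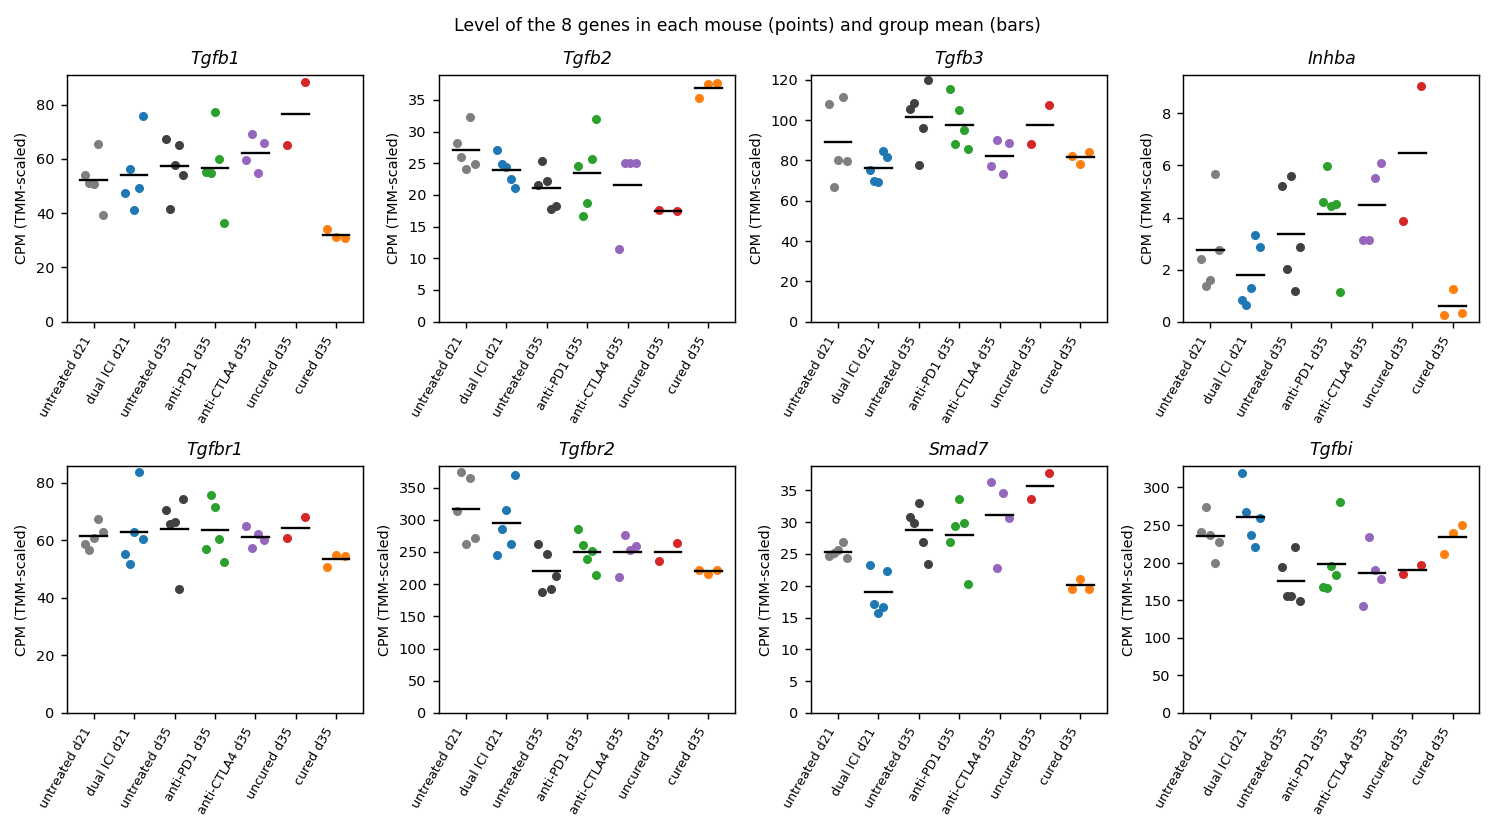
Levels of the 8 genes in TMM-scaled CPM (linear axes from 0) in 7 groups. Each point is 1 mouse and each bar the group mean. The 3 cured mice lie between 30.8 and 34.0 CPM for Tgfb1 and between 35.3 and 37.7 CPM for Tgfb2.

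Cured tissue was compared with untreated day 35 tissue to ask which pathway genes differed where dissemination had been cleared. Tgfb1, Inhba and Smad7 were lower in the cured mice and Tgfb2 was higher, so 4 of the 8 genes were called, where 44.7% of all 15816 genes tested were called. The share was thus near that of all genes. The median log2 fold change was -0.27 over the 8 genes and -0.05 over all genes. With total counts alone, 5 of the 8 were called, beside 54.2% of all genes, and Tgfb2 no longer passed the test. Of all calls, 40.3% were higher in cured mice with TMM and 13.8% on total counts.

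Tgfb1, the ligand best known for suppressing T cells, stood at 67.5, 41.4, 57.8, 65.2 and 54.1 CPM in untreated day 35 mice 1 to 5. In cured mice 2, 3 and 4 it stood at 34.0, 31.3 and 30.8 CPM. No cured mouse reached the lowest untreated mouse, also in CPM on total counts (22.3 to 23.7 against 32.8 to 80.9). The edgeR log2 fold change was -0.81 (SE 0.17, adjusted p = 0.0042), and on total counts -1.42 (SE 0.27, adjusted p = 0.0023). Of the untreated mice, mouse 2, which had the most muscle and the least epithelial signal of its group, was the lowest.

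Tgfb2, a second ligand that needs the co-receptor betaglycan for tight receptor binding, went the other way. It stood at 21.6, 25.3, 22.2, 17.8 and 18.2 CPM in untreated mice and at 35.3, 37.6 and 37.7 CPM in cured mice. These ranges did not overlap, and the edgeR log2 fold change was 0.83 (SE 0.16, adjusted p = 0.0028). On total counts the ranges overlapped (24.6 to 27.4 in cured against 16.8 to 26.3 in untreated mice) and the log2 fold change was 0.26 (SE 0.19, adjusted p = 0.27). The higher level of Tgfb2 thus passed the test relative to the bulk of other genes, and its share of all counts was higher by an amount that did not pass.

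The ratio of Tgfb1 to Tgfb2 counts within a library does not depend on library scaling. It was 0.962, 0.834 and 0.816 in the cured mice. In untreated day 35 mice 1 to 5 it was 3.13, 1.63, 2.60, 3.67 and 2.97, and in uncured mice 1 and 5 it was 3.70 and 5.06. All cured mice lay below 1 and all of the other 26 mice above it, the lowest of these being anti-PD1 mouse 5 at 1.13. The mean log2 ratio was -0.20 ± 0.13 (SD, n = 3) in cured and 1.44 ± 0.44 (SD, n = 5) in untreated mice, or -1.64 as cured minus untreated. The exact 2-sided permutation p was 0.0357, the smallest that 3 against 5 mice allow, and it was 0.25 after adjustment over the 14 ratio tests, so the difference did not pass that adjustment. This ratio was chosen after the values had been seen.

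**Figure D2:**
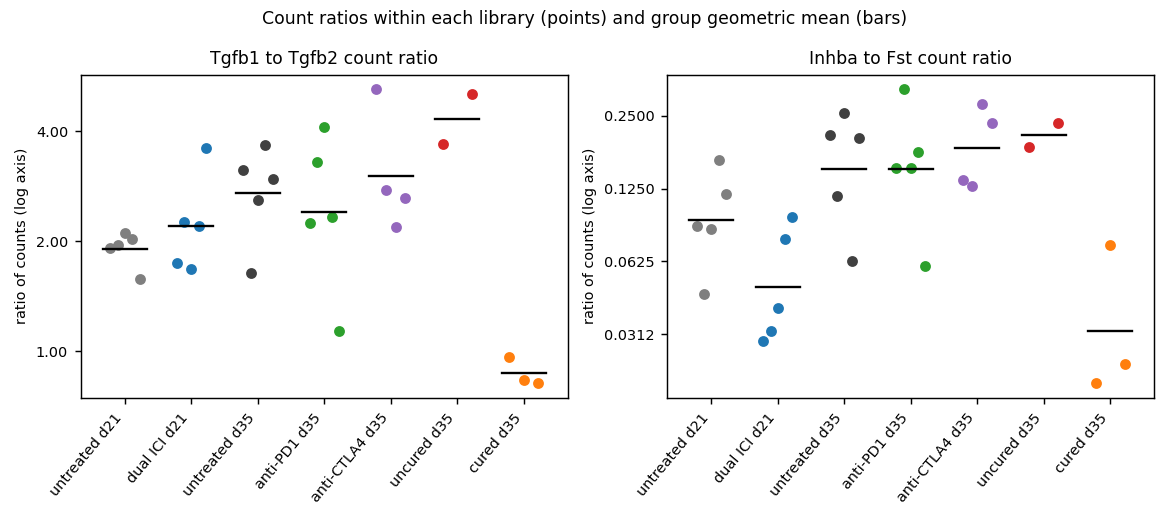
Ratio of Tgfb1 to Tgfb2 counts (left) and of Inhba to Fst counts (right) within each library, on log axes. Points are mice and bars are geometric means of the 7 groups. The Tgfb1 to Tgfb2 ratio is below 1 in the 3 cured mice, and the Inhba to Fst ratio is below 1 in all mice.

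Inhba, the activin A subunit gene, showed the largest difference of the 8 genes and the lowest counts. Untreated day 35 mice 1 to 5 had 182, 50, 191, 30 and 98 counts, or 5.21, 2.03, 5.60, 1.19 and 2.88 CPM. Cured mice 2, 3 and 4 had 5, 26 and 7 counts, or 0.256, 1.27 and 0.339 CPM. Inhba thus passed the filter on low counts through the untreated mice. The alternative filter of at least 10 counts in every library left it untested here. The groups overlapped at cured mouse 3 and untreated mouse 4, and on total counts the cured mice (0.179 to 0.925 CPM) lay below the untreated mice (1.13 to 6.62 CPM). The log2 fold change was -2.41 (SE 0.68, adjusted p = 0.018). It was no longer called without cured mouse 2 (-2.04, adjusted p = 0.068) or cured mouse 4 (-2.11, adjusted p = 0.075), and it was -3.47 without cured mouse 3. The ratio of Inhba to Fst counts was 0.0196, 0.0728 and 0.0236 in the cured mice and 0.0626 to 0.258 in untreated mice (difference in log2 ratio -2.23, exact 2-sided permutation p = 0.0714, adjusted over the 14 ratio tests 0.25). Cured mouse 3 overlapped the untreated mice in this ratio too.

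Smad7, the inhibitory SMAD that TGF-beta itself induces, stood at 30.8, 29.9, 32.95, 26.9 and 23.4 CPM in untreated and at 19.5, 21.1 and 19.5 CPM in cured mice, without overlap. The log2 fold change was -0.50 (SE 0.15, adjusted p = 0.023), and on total counts -1.09 (SE 0.22, adjusted p = 0.0033). With TMM the call was lost when cured mouse 2, 3 or 4 or untreated mouse 3 was left out (adjusted p between 0.0502 and 0.0918).

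Tgfb3, Tgfbr1, Tgfbr2 and Tgfbi did not pass the test in this comparison. Tgfb3, the ligand most abundant per length here, was 81.6 ± 3.03 CPM in cured (SD, n = 3) and 101.6 ± 15.8 in untreated mice (SD, n = 5), with a log2 fold change of -0.30 (SE 0.17, adjusted p = 0.17). The type I receptor gene Tgfbr1 had a log2 fold change of -0.24 (SE 0.18, adjusted p = 0.31) and the type II receptor gene Tgfbr2 one of 0.02 (SE 0.17, adjusted p = 0.92). Tgfbi was 212 to 250 CPM in cured and 149 to 221 CPM in untreated mice (log2 fold change 0.44, SE 0.18, adjusted p = 0.078). On total counts, Tgfb3 (-0.88) and Tgfbr1 (-0.84) were called as lower, and the log2 fold changes of Tgfbr2 (-0.59) and Tgfbi (-0.14) turned negative without passing the test.

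The uncured and cured dual ICI mice had received the same treatment and differed in outcome. In the uncured mice Tgfb1, Inhba and Smad7 were higher and Tgfb2 and Tgfbi lower, so 5 of 8 genes (62.5%) were called, below the 70.0% of all 15796 genes tested. With 2 against 3 mice, each value rests on few animals. Tgfb1 stood at 65.2 and 88.2 CPM in uncured mice 1 and 5, above all 3 cured mice (log2 fold change 1.24, SE 0.14, adjusted p = 5.7e-05). Tgfb2 stood at 17.6 and 17.4 CPM, below all 3 (-1.10, SE 0.11, adjusted p = 2.4e-05), and it stayed lower on total counts (-0.32, SE 0.11, adjusted p = 0.025). Together these moved the Tgfb1 to Tgfb2 ratio by 2.32 on the log2 scale (exact 2-sided permutation p = 0.2, the smallest that 2 against 3 mice allow).

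Inhba stood at 3.88 and 9.05 CPM in the uncured mice, from 121 and 332 counts, and its log2 fold change of 3.34 (SE 0.59, adjusted p = 0.0010) was the largest of the 8. The cured mice had 5, 26 and 7 counts, so Inhba passed the filter on low counts through the uncured mice. The filter of at least 10 counts in every library left Inhba untested in this comparison too. Smad7 stood at 33.6 and 37.7 CPM (0.80, SE 0.11, adjusted p = 2.5e-04). Both genes lay above all cured mice, as did Tgfb3, Tgfbr1 and Tgfbr2, which were not called with TMM. How many of all genes separated these 2 and 3 mice was not counted. Tgfbi was lower in uncured mice with TMM (185 and 196 CPM, log2 fold change -0.32, SE 0.11, adjusted p = 0.030) and higher on total counts (0.46, SE 0.12, adjusted p = 0.0056), so its direction turned with the scaling. Its TMM call was also lost in 4 of the 5 fits that left out 1 mouse, all but that without cured mouse 2. Tgfb3 (0.24), Tgfbr1 (0.24) and Tgfbr2 (0.16) did not pass the test with TMM, and all 8 genes were called on total counts, 7 of them higher. On that scale 78.8% of all genes were called and 81.4% of the calls were higher in uncured mice, against 52.7% of calls with TMM.

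**Figure D3:**
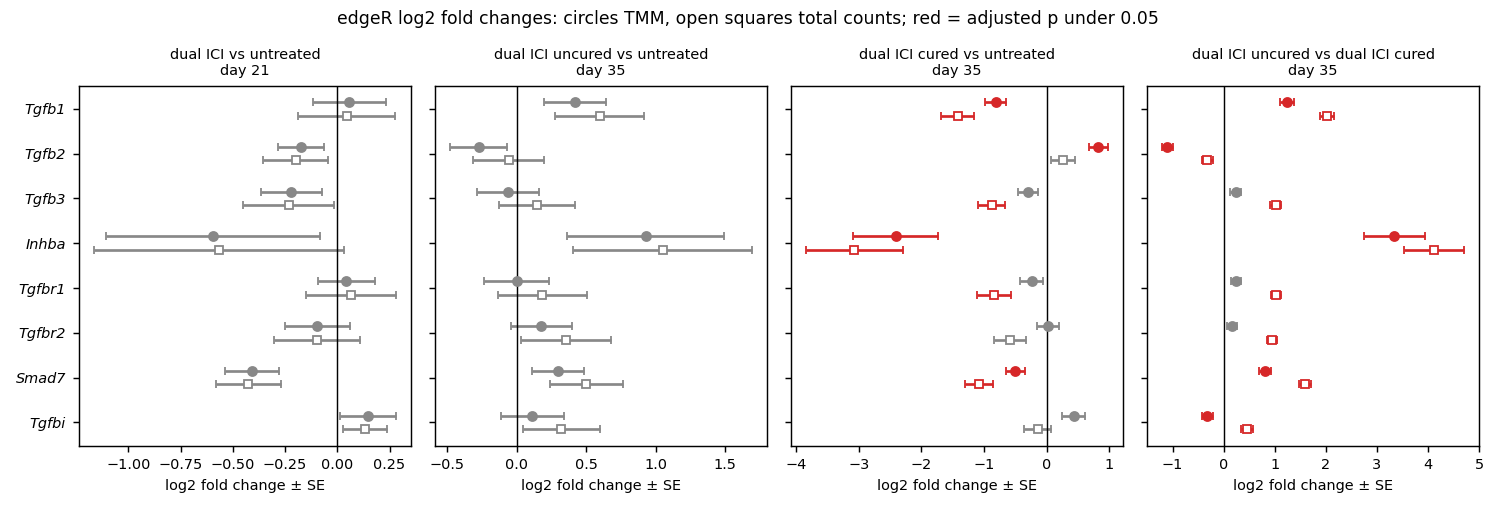
Log2 fold changes with SE of the 8 genes from edgeR in 4 comparisons. Circles use TMM and open squares total counts alone, red marks an adjusted p under 0.05 and grey the rest, and each panel has its own axis. Cured against untreated, Tgfb1 is at -0.81 and -1.42 and Tgfb2 at 0.83 and 0.26 under the 2 scalings.

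The uncured mice were also compared with untreated mice of the same day. None of the 8 genes was called, and neither was any of the 16156 genes tested with edgeR (0%). At an unadjusted p under 0.05 there were 787 genes, 0 of them among the 8, and DESeq2 called 18 genes. The log2 fold changes were 0.42 for Tgfb1 (SE 0.22), 0.93 for Inhba (SE 0.57), 0.30 for Smad7 (SE 0.19) and -0.27 for Tgfb2 (SE 0.21), each with an adjusted p of 0.73. Both uncured mice lay above all 5 untreated mice for Smad7 (33.6 and 37.7 against at most 32.95 CPM) and below them for Tgfb2 (17.6 and 17.4 against at least 17.8 CPM), by small gaps. When the 5 dual ICI mice of day 35 were taken as 1 group, these 4 values turned to -0.20, -0.19, -0.13 and 0.48, in a group of 3 cured and 2 uncured mice.

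Neither single antibody moved any of the 8 genes past the threshold. In anti-PD1 mice, 0 of 8 genes and 0 of all 15640 tested (0%) were called by edgeR, with 205 at an unadjusted p under 0.05, none of them among the 8, and DESeq2 called 0. Anti-PD1 mice 1 to 5 had 55.1, 54.7, 77.4, 59.998 and 36.2 CPM of Tgfb1 and 4.597, 5.99, 4.46, 4.53 and 1.14 CPM of Inhba. With TMM, mouse 5 was the lowest of its group in both and in Smad7 (20.3 CPM), and it was the highest in Tgfb2 (32.0 CPM) and Tgfbi (280.5 CPM). On that scale it lay nearer to the cured mice than the other 4 did in Tgfb1, Inhba, Smad7 and Tgfb2. On total counts it was not the highest in Tgfb2 (22.1 CPM, against 28.4 in mouse 4) or Tgfbi (194 CPM, against 231 in mouse 3). In Tgfb2, mouse 1 (25.9 CPM) then lay nearer to the cured mice (24.6 to 27.4 CPM). Leaving out mouse 5, the count of genes called remained 0 and the log2 fold change of Tgfb1 was 0.10.

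In anti-CTLA4 mice, 0 of 8 genes and 0 of all 15781 tested (0%) were called by edgeR, with 128 at an unadjusted p under 0.05, none among the 8, and 0 by DESeq2. Tgfb1 stood at 59.5, 69.3, 54.6 and 65.8 CPM and Inhba at 3.14, 3.14, 5.52 and 6.11 CPM, both overlapping the untreated mice. Tgfb2 stood at 25.1, 25.0 and 25.0 CPM in mice 2, 3 and 4 and at 11.4 CPM in mouse 1, the lowest level of all 29 libraries. The log2 fold changes over the 8 genes ranged from -0.32 for Tgfb3 (SE 0.15) to 0.39 for Inhba (SE 0.43).

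On day 21, dual ICI mice were compared with untreated mice. None of the 8 genes was called, against 0.574% of all 15503 genes tested (89 genes). Smad7 came nearest. It stood at 24.7, 25.2, 25.6, 26.9 and 24.3 CPM in untreated mice and at 23.3, 17.1, 15.6, 16.7 and 22.3 CPM in dual ICI mice. Every dual ICI mouse lay below every untreated mouse, and the log2 fold change was -0.41 (SE 0.13, adjusted p = 0.23 by edgeR). It was the 1 gene of the 8 at an unadjusted p under 0.05, and DESeq2 called 0 of the 8. In CPM on total counts the ranges overlapped (14.9 to 24.1 against 22.8 to 30.8).

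The other ligand genes overlapped between these day 21 groups. Inhba stood at 2.42, 1.35, 1.6, 5.65 and 2.75 CPM in untreated and at 0.823, 0.634, 1.29, 3.32 and 2.87 CPM in dual ICI mice (log2 fold change -0.59, SE 0.51). Tgfb1 had a log2 fold change of 0.06 (SE 0.17), Tgfb2 of -0.17 (SE 0.11) and Tgfb3 of -0.22 (SE 0.15). Dual ICI mouse 5 had the highest Tgfb1 level of its group (75.9 against 41.1 to 56.1 CPM). The receptors Tgfbr1 (0.04, SE 0.13) and Tgfbr2 (-0.10, SE 0.16) and the matrix gene Tgfbi (0.15, SE 0.13) differed by about their error or less.

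The effect of dual ICI in uncured mice on day 35 was set against that on day 21 by an interaction term. The day 35 mice in this term were selected by outcome, whereas the outcome of the day 21 dual ICI mice is not given. The day 35 mice had also received more antibody injections. Day, outcome and dosing thus cannot be told apart in this term. No gene of 16542 was called by edgeR (0%), with 1050 at an unadjusted p under 0.05, and DESeq2 called 1. Among the 8 genes, Smad7 had an interaction of 0.72 (SE 0.21, adjusted p = 0.71 by edgeR), lower than untreated on day 21 and higher on day 35, and Inhba one of 1.54 (SE 0.83, adjusted p = 0.71). Neither passed the correction, and Smad7 was the 1 gene of the 8 at an unadjusted p under 0.05.

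Untreated tissue of day 35 was compared with that of day 21. The 2 days also differ in the series of library codes, and what the codes stand for is not stated, so time and code series cannot be told apart. Tgfbr2 was lower on day 35, and it was the 1 called gene of the 8 (12.5%), beside 10.8% of all 15604 genes tested. It stood at 187 to 262 CPM on day 35 and at 263 to 374 CPM on day 21, a log2 fold change of -0.53 (SE 0.15, adjusted p = 0.049). The call was lost in 9 of the 10 fits that left out 1 mouse, all but that without untreated day 35 mouse 2, and on total counts (-0.42, adjusted p = 0.26). Tgfb2 (-0.37, SE 0.13, adjusted p = 0.091) and Tgfbi (-0.43, SE 0.15, adjusted p = 0.091) missed the threshold. Tgfb1 (0.13, SE 0.16) and Inhba (0.30, SE 0.46) differed by less than their error.

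Ordered by mean TMM level, Tgfb1, Inhba and Smad7 had the same leading groups: uncured mice first and anti-CTLA4 mice second. Tgfb1 fell from 76.7 CPM in uncured to 52.1 in untreated day 21 mice with overlap between all neighbours, and the cured mice at 32.0 CPM stood clear of the next group. Smad7 ran from 35.7 CPM in uncured to 25.3 in untreated day 21 mice, each pair of neighbours overlapping, and then without overlap to the cured mice at 20.04 and the day 21 dual ICI mice at 19.0, which overlapped each other. For Inhba every pair of neighbours overlapped, from 6.47 CPM in uncured to 1.79 in day 21 dual ICI and 0.621 in cured mice. Tgfb2 ran in another order, with cured mice at 36.9 CPM above untreated day 21 mice at 27.1, and uncured mice last at 17.5. With TMM both of these end steps showed no overlap. On total counts the Tgfb2 mean was 26.5 CPM in cured mice, below 27.2 in untreated day 21 mice. The uncured range (21.1 to 21.3 CPM) then lay within that of untreated day 35 mice (16.8 to 26.3 CPM). The cured mice also had the lowest Tgfbi mean on that scale (168 CPM). Tgfb3 (76.1 to 101.6 CPM), Tgfbr2 (220.0 to 317 CPM) and Tgfbi (175 to 261 CPM) overlapped between all neighbours, and Tgfbr1 (53.4 to 64.3 CPM) between all but anti-CTLA4 and cured mice.

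Gastric epithelium markers moved with several of these levels, and markers of other tissues separated the same mice. The 3 cured mice and anti-PD1 mouse 5 were the 4 mice under 100 CPM of epithelial markers. With TMM they were the 4 lowest of day 35 in Tgfb1 and the 4 highest of day 35 in Tgfb2. On total counts they remained the lowest in Tgfb1. In Tgfb2, anti-PD1 mouse 5 then stood at 22.1 CPM and the cured mice at 24.6 to 27.4 CPM. On that scale anti-PD1 mouse 4 (28.4 CPM) and anti-CTLA4 mouse 3 (27.9 CPM) stood above them. The 4 mice under 100 CPM of epithelial markers also had the highest muscle shares of day 35 (17.1% to 19.0%). The next share was 16.5% in untreated mouse 2. Their neutrophil and mesothelium marker sums were the lowest of that day. Inhba was highest (9.05 CPM) in uncured mouse 5, which also had the most epithelial marker counts (5200 CPM). Untreated day 35 mouse 4, with 3697 CPM of epithelial markers, still had 1.19 CPM of Inhba. Fibroblast markers (8 of 8 found) took 0.415% to 0.464% of counts in cured, 0.478% to 1.28% in untreated day 35 and 0.969% to 1.46% in uncured mice. Col1a1, Col1a2 and Col3a1 belong both to this list and to the list of genes induced by TGF-beta read below, so the lists are not separate. Neutrophil markers (4 of 5 listed genes found) summed to 3.24 to 5.62 CPM on total counts in cured, 20.9 to 104.8 in untreated day 35 and 84.4 to 118.7 in uncured mice. T cell markers (6 of 6) summed to 3.73 to 5.69, 8.98 to 18.7 and 41.5 to 44.3 CPM, and macrophage markers (6 of 6) to 268 to 356, 220 to 803 and 705 to 842 CPM in the same order. Mesothelium markers (5 of 5) summed to 27.2 to 105.2 CPM in cured, 123 to 599 in untreated and 312 to 345 in uncured mice, and liver markers (3 of 3) to 0.178 to 0.643, 3.64 to 30.5 and 21.5 to 23.5 CPM. Endothelial markers (5 of 5, 297 to 327 CPM in cured and 238 to 379.7 in untreated mice) and adipocyte markers (4 of 4, 176 to 238 and 101 to 280.1 CPM) overlapped between these groups, and exocrine pancreas markers (3 of 3) were at most 0.263 CPM. Their part in the levels of the 8 genes was not tested.

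**Figure D4:**
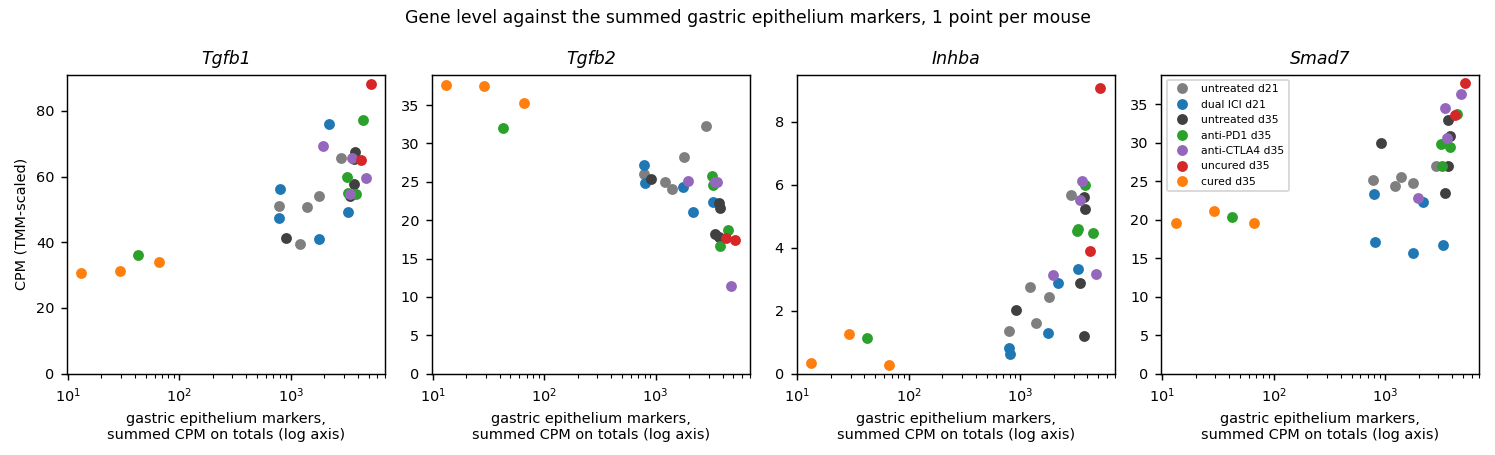
Levels of Tgfb1, Tgfb2, Inhba and Smad7 in TMM-scaled CPM against the summed CPM of 10 gastric epithelium markers on total counts (log axis), 1 point per mouse, coloured by group. The 3 cured mice and anti-PD1 mouse 5 lie at 13.3 to 66.3 CPM of markers and the other 25 mice at 786 or more.

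A list of 55 other genes of the pathway, written by role, was read in the same fits, and 54 of them were tested (Nodal was not). In cured against untreated day 35 tissue, 19 fell, 6 rose and 29 did not pass the test, which makes 46.3% called beside 44.7% of all genes. On total counts 29 fell and 1 rose, or 55.6% called beside 54.2% of all genes, whose calls were also mostly falls. The largest falls were in Ltbp2 (log2 fold change -4.90, SE 0.42), a matrix protein related to the latent TGF-beta binding proteins, Cdkn2b (-3.37, SE 0.37), a cell cycle inhibitor, Thbs1 (-2.35, SE 0.41), which encodes thrombospondin 1, and Tgif1 (-2.20, SE 0.25), a transcriptional co-repressor of SMAD2. Ltbp2 stood at 2.18 to 3.69 CPM in cured and 37.3 to 113.8 CPM in untreated mice. Of the 13 genes known to be induced by TGF-beta, 6 fell (among them Cdkn2b, Ccn2, Postn, Tagln and Snai1) and 0 rose. Beside this, 44.7% of all genes were called. The list median was -0.68 beside -0.05 for all genes. On total counts 11 of the 13 fell and 0 rose, with a median of -1.30 beside -0.64 for all genes. Tgfbi and Smad7, also induced by TGF-beta, are outside this list. With TMM, Tgfbi was at 0.44 and not called, and Smad7 fell (-0.50). Of 7 inhibitors and modifiers, 4 fell (Tgif1, Skil, Pmepa1 and Smurf1) and 0 rose.

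Ligands and receptors of the wider family were mixed. Beside the counts by role that follow, 44.7% of all genes were called with TMM and 54.2% on total counts. Of 7 tested activin-related ligands and binding proteins, Inhbb (-0.92, SE 0.21), the beta B subunit, Fstl3 (-1.45, SE 0.28), a follistatin-like trap, and Gdf15 (-1.32, SE 0.41) fell. Gdf15 was low, at 0.194 to 0.461 CPM in cured and 0.587 to 1.14 CPM in untreated mice, and passed the filter through the untreated mice. Mstn (1.39, SE 0.48), the muscle-made ligand myostatin, and Gdf11 (1.09, SE 0.35) rose. The cured mice had the highest share of muscle counts, and its part in the levels of Mstn and Gdf11 was not tested. On total counts 5 of these 7 fell and 1 rose. Of 10 receptors, Acvr2b (1.18, SE 0.34) and Tgfbr3 (0.72, SE 0.19), the gene of betaglycan, rose and 0 fell. On total counts no receptor rose and 1 fell. Of 7 other SMADs, Smad1 and Smad9 fell and Smad3 rose (0.75, SE 0.19), whereas on total counts 3 SMADs fell and 0 rose. Without untreated mouse 2, 21 of the 54 genes fell and 13 rose, or 63.0% beside 59.5% of all genes.

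Between uncured and cured mice, 24 of the 54 genes were higher in uncured mice and 11 lower, or 64.8% beside 70.0% of all genes, and on total counts 39 were higher and 2 lower, or 75.9% beside 78.8%. Ltbp2 (5.38, SE 0.19), Cdkn2b (3.71, SE 0.16), Thbs1 (2.94, SE 0.34) and Tgif1 (2.56, SE 0.20) again differed most. Of the induced genes 9 of 13 were higher and 0 lower, where 70.0% of all genes were called, and on total counts 12 were higher and 0 lower. Tgfbi and Smad7, also induced by TGF-beta, are outside this list. With TMM, Tgfbi was lower (-0.32) and Smad7 higher (0.80) in uncured mice, and on total counts both were higher. Of the receptors 5 of 10 were lower and 0 higher, whereas on total counts 5 receptors were higher and 1 lower. These comparisons share the cured mice, so they are not separate evidence.

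**Figure D5:**
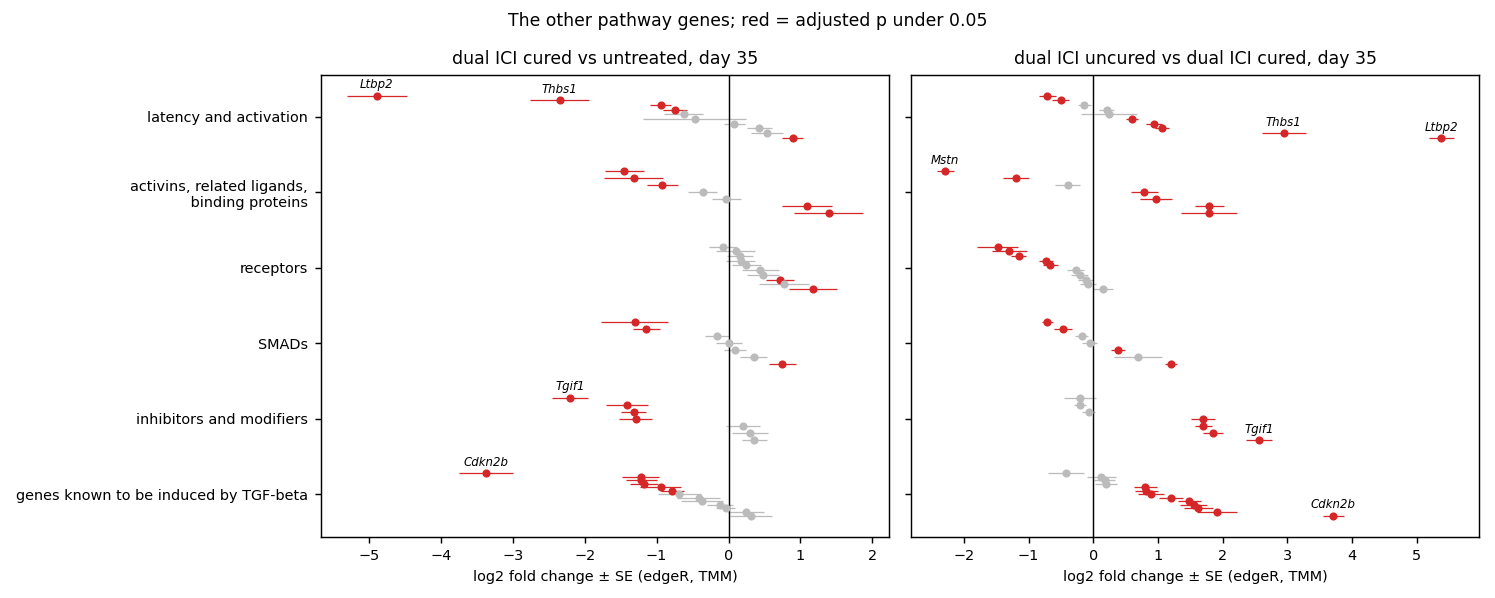
Log2 fold changes with SE (edgeR, TMM) of the 54 other pathway genes tested, by role, for cured against untreated (left) and uncured against cured mice (right). Red marks an adjusted p under 0.05. Ltbp2 is at -4.90 on the left and 5.38 on the right.

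In the untreated mice, 4 of the 54 genes rose and 8 fell between day 21 and day 35, or 22.2% beside 10.8% of all genes. Among the largest differences were those in the collagen genes Col3a1 (-1.27, SE 0.27) and Col1a1 (-0.94, SE 0.25) and in Cdkn2b (1.21, SE 0.34). The induced genes thus split, with 4 higher and 3 lower. On total counts 1 of the 54 rose and 2 fell, or 5.56% beside 8.26% of all genes. Without untreated day 35 mouse 2, 9 rose and 19 fell, or 51.9% beside 31.2%. In the 5 remaining comparisons, which include dual ICI on day 21 and both single antibodies, 0 of the 54 genes were called by edgeR. At an unadjusted p under 0.05 there were 8 of them for dual ICI on day 21, 0 for each single antibody, 1 for uncured against untreated mice and 5 for the interaction.

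The genes with the most similar pattern over the 29 libraries differed between members, by Pearson's r of log2 CPM among 14337 genes. For Tgfb1 they were Cotl1 (r = 0.94, and 0.89 over the 26 libraries without the cured mice), Lfng (0.91 and 0.85) and Cnn2 (0.91 and 0.87). For Inhba they were Cdh6 (0.95 and 0.93), Dzip1l (0.93 and 0.89) and Tanc1 (0.92 and 0.89). For Tgfb2 they were Gm20743 (0.89 and 0.84), Asb18 (0.88 and 0.85) and Pgm5 (0.88 and 0.81). For Tgfbr2 they were Fn1 (0.89 and 0.91), Col3a1 (0.89 and 0.89) and Col1a2 (0.88 and 0.90). Tgfbi ran closest to Retnla (0.91 and 0.92), Folr2 (0.90 and 0.90) and Lyz1 (0.88 and 0.91). Smad7 ran closest to Atn1 (0.92 and 0.91), Mex3d (0.90 and 0.89) and Zfp746 (0.89 and 0.90), and Tgfbr1 to Rspry1 (0.89 and 0.88), Fam199x (0.89 and 0.89) and Slc30a4 (0.88 and 0.87). Tgfb3 had no close partner, the highest being Tagln at 0.69 and 0.68, then D630003M21Rik (0.66 and 0.65) and Tph1 (0.65 and 0.64). All points share the tissue mix and depth of their library, so these values are descriptions.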

How the data were processed

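RNA-seq of 29 mice in 7 groups was analysed. The authors deposited a table of read counts by gene symbol, without normalization. The labels name STAR 2.7.0f, featureCounts 1.6.4 and mm10, whereas the methods of the study name HTSeq and another STAR version, so the counter is uncertain, and so is the RNA extraction (TRIzol with columns in the labels, ISOGEN in the methods). Total counts per library were 25989217 to 31219650.

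Groups were compared with edgeR 4.0.16 in R 4.3.3 (TMM, filterByExpr, glmQLFit, glmQLFTest, Benjamini-Hochberg adjusted p under 0.05). Each fit held the libraries of its own groups alone. DESeq2 1.42.0, upper-quartile scaling, no filter, at least 10 counts in every library, removal of muscle genes, a fit of all 29 libraries, leaving out each mouse and a replicate block were alternatives. Total counts alone, the count ratios and the pathway counts under other settings were added after seeing the data. Fits were tested on simulated data. Where leaving out a mouse left 1 sample in an arm, that sample was assumed to vary like the others. Exact permutation tests used scipy 1.17.1. Positions and exon lengths came from GENCODE M21 on GRCm38.

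The genes and lists were chosen with earlier results of these data known. Named were the 8 genes, up to 4 called genes of the pathway list per comparison (all where 4 or fewer, otherwise those with the largest change), and the 3 genes most alike to each. The further pathway genes named by role were chosen after their values were seen. The values of 1 gene that the rule names are not reported here. Of 65 marker genes in 11 lists, 64 were in the table. Within-group library pairs (50) differed by more than sampling noise (lowest chi-square per gene 13.5), so none was counted as a duplicate.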

Additional observations from a re-analysis of the deposited data

Results flagged for a closer look

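In groups of 4 or more mice, 3 of the 40 combinations of gene and group held a mouse far from the others, by a gap that makes up most of the group's range. Chance alone gives about 1 in 20 such combinations. Tgfb2 stood at 11.4 CPM in anti-CTLA4 mouse 1, against 25.0 to 25.1 CPM in the other 3 mice. Inhba stood at 1.14 CPM in anti-PD1 mouse 5, against 4.46 to 5.99 CPM in the other 4, and this mouse had 42.5 CPM of gastric epithelium markers. Tgfbr1 stood at 43.1 CPM in untreated day 35 mouse 4, against 65.6 to 74.3 CPM in the other 4.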

How the results depend on the processing

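Of the 514 repeated values of single genes of the 8, 450 kept their direction and side of the threshold, 18 passed it newly, 30 lost it and 16 turned in direction. On total counts alone (added after seeing the data), cured against untreated, Tgfbr2 turned to -0.59 and Tgfbi to -0.14, and uncured against cured, Tgfbi turned to 0.46 and 8 of the 8 genes were called. These changes follow from the scaling itself. Tgfbr2, cured against untreated, also turned to -0.023 with upper-quartile scaling and -0.039 with at least 10 counts in every library. Taking the dual ICI mice of day 35 as 1 group turned Tgfb1 to -0.20, Tgfb2 to 0.48, Inhba to -0.19 and Smad7 to -0.13 against untreated mice. Genes called on day 21 were 507 with DESeq2 and 15 on total counts, beside 89. DESeq2 called 18 genes for uncured against untreated mice, 1 for the interaction and 3141 over time, with 2 of the 8 genes. The single call over time became 0 with upper-quartile scaling, no filter, at least 10 counts and total counts. Other causes were not tested.

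The study divided its mice at random into groups and states no pairing by number. Correlations of same-numbered mice ran from -0.74 to 0.74. Those of differently numbered mice spanned a similar range (-0.81 to 0.83), so the correlations can neither show nor exclude a shared block. With the replicate block, genes called were 3902 for cured against untreated (2 of the 8, Tgfb1 at adjusted p = 0.056 and Smad7 at 0.11), 209 on day 21, and 2 for uncured against untreated, and over time 0 of the 8 genes were called. Uncured and cured mice share no numbers, so no such fit was made for them.

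Leaving out 1 mouse, genes called for cured against untreated were 4491 (without cured mouse 3) to 9388 (without untreated mouse 2), with 2 to 6 of the 8. For uncured against cured mice they were 9668 to 10883, with 4 to 6 of the 8. They were 6 (without untreated mouse 5) to 119 on day 21 and 654 (without untreated day 21 mouse 5) to 4915 (without untreated day 35 mouse 2) over time, with 0 to 2 of the 8. Log2 fold changes near 0 changed sign: Tgfb1 on day 21 (-0.10 to 0.14), Tgfb1 under anti-PD1 (-0.15 to 0.10) and Tgfbr2 in cured against untreated mice (-0.0193 to 0.0815). Levels in cured mice were 0.717 to 0.725 times the TMM level in CPM on total counts and 0.876 to 0.882 times without muscle genes, and in uncured mice 1.21 to 1.22 and 1.28 times. Inhba rested on 5 to 332 counts per library in day 35 mice, and its errors were the largest of the 8 genes.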
